A study of Mus musculus with 6 samples.

Results

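The cytosolic ribosomal protein genes encode the proteins of the cytoplasmic ribosome, and 88 of the 47729 genes in the count files were taken as such by their symbol (Rps or Rpl with a number and an optional a, x or l, together with Rpsa, Rplp0, Rplp1 and Rplp2). Gene names that mark a pseudogene (-ps) and the Rps6k kinases were left out. The set held 36 names of the small subunit and 52 of the large subunit. All 88 had an entry in GENCODE M21 (build GRCm38), where 5 were listed as pseudogenes (Rpl6l, Rps12l1, Rps3a2 and Rps3a3 as processed pseudogenes, Rps4l as a transcribed processed pseudogene). Rpl36al and Fau, which also encode ribosomal proteins, have symbols outside the rule.

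RNA-seq was done on livers of C57BL/6 mice that had received 0.1% DDC, a porphyrinogenic compound that causes cholestatic injury, in the diet for 17 days. The 3 control samples are titled WT in the labels and called shNC (a non-targeting hairpin) in the series design. The other 3 samples carried a knockdown of Atoh8, a basic helix-loop-helix transcription factor, named shAtoh8. All 6 samples share strain and diet, and the labels give neither the sex nor the age of the mice, nor how the hairpins were delivered. The labels give the source as liver and the cell type as hepatocyte. They do not say whether each sample is a separate animal, so p-values measure only how much these samples vary, and that variation may be technical. In bulk RNA, fewer cells of a type and less RNA per cell cannot be told apart.

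Each cytosolic ribosome joins a small subunit, which reads the mRNA, to a large subunit, which forms the peptide bond. Its proteins are needed in near-equal numbers, and their mRNAs are among the most abundant in most cells. Transcription of these genes typically starts at a cytosine followed by a run of pyrimidines, the 5′ terminal oligopyrimidine tract (TOP), through which mTOR signalling and the RNA-binding protein Larp1 control translation and storage of the mRNA. In the liver, ribosome production accompanies growth and regeneration, and free ribosomal proteins can stabilise p53 by binding Mdm2.

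The start sites of 10 members are shown. Some of them are genes that the comparisons below turn on, and the windows show starts with and without the TOP tract. The symbol rule for members did not use that tract. RefSeq (GRCm38.p6) promoter entries were matched by symbol for 63 of the 88 members. Each line runs from 30 bases before the listed start to 15 bases into the transcript, and capitals mark the longest run of C and T that opens with C and is at least 5 bases long, where there is one within 20 bases before the start or in the transcript part shown. The run of Rps18, Rps27, Rps6, Rpl15 and Rpl7a covers the listed start, that of Rpl4 ends before it, and that of Rpl22l1 lies inside the transcript. Rpl23, Rplp0 and Rpsa have none in these windows. Rpl21 and Rps4l had no entry.
Rps18: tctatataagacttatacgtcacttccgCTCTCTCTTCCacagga
Rps27: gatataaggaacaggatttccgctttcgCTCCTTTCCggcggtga
Rps6: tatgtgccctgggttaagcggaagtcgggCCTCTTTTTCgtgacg
Rpl15: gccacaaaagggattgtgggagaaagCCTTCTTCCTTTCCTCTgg
Rpl4: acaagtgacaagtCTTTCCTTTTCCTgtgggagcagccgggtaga
Rpl7a: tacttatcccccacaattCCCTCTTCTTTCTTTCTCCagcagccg
Rpl22l1: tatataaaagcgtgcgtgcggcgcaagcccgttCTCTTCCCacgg
Rpl23: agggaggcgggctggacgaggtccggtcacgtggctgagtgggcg
Rplp0: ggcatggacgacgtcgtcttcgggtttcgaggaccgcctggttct
Rpsa: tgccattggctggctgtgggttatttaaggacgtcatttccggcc

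These windows lie at chr17:33955651-33955695 (minus strand, Rps18), chr3:90213634-90213678 (minus, Rps27), chr4:86857353-86857397 (minus, Rps6), chr14:18270972-18271016 (minus, Rpl15), chr9:64173357-64173401 (plus, Rpl4), chr2:26910777-26910821 (plus, Rpl7a), chr3:28805478-28805522 (plus, Rpl22l1), chr11:97782425-97782469 (minus, Rpl23), chr5:115559437-115559481 (plus, Rplp0) and chr9:120127736-120127780 (plus, Rpsa). Over all entries, read on the sense strand, a C at the listed start followed by at least 4 of C or T was found in 13 of the 63 members (20.6%), against 813 of 27025 genes (3.01%). A C followed by at least 7 of C or T anywhere within 20 bases either side of the start was found in 30 members (47.6%), against 14.5% of all genes. A listed start can lie some bases away from the start used in liver, so a window without a tract says only that these letters are not in it.

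Each library held 31912058 to 37969644 reads in genes. Atoh8 stood at 63.8, 16.8 and 16.4 CPM (reads scaled to a common library size by the trimmed mean of M-values, TMM) in controls 1 to 3 and at 10.2, 9.83 and 5.64 CPM in knockdown samples 1 to 3. All knockdown values lay below all control values, with a log2 fold change of -1.92 (SE 0.58, edgeR adjusted p = 0.197), or -0.95 (SE 0.23, edgeR adjusted p = 0.0115) without control 1. Control 1 stood apart from the other controls: its log2 CPM correlated with theirs at Pearson's r of 0.927 and 0.919 across genes, against 0.992 between controls 2 and 3. Control 1 correlated more closely with knockdown samples 1 to 3, at r of 0.952, 0.959 and 0.937, than with its own group. Its mitochondrially encoded reads were 2.43% of gene reads, against 3.48% to 6.94% in the other libraries. For this reason the comparisons between groups were made with and without control 1. Hepatocyte genes such as Alb and Apoa1, the check of the labelled cell type, summed to 97820 to 134700 CPM over the 9 listed genes found. Krt19, the defining keratin of bile duct cells, had 0 to 5 reads in each library.

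Ribosomal protein mRNAs were abundant and held their relative order from library to library. For 80 members with at least 1000 reads in all, the mean FPKM (reads scaled by transcript length and by library size) had a median of 350.8, and 68 of them lay between 200 and 800 FPKM. The order of the 80 genes by FPKM correlated between any pair of libraries at Spearman's rho of 0.884 or more, across genes that share library and length estimates. In the large subunit the highest were Rpl10 (975 FPKM), which joins the large subunit late in its maturation, Rpl41 (920 FPKM), the smallest ribosomal protein, and Rplp1 (772 FPKM), one of the acidic stalk proteins that recruit translation factors. In the small subunit they were Rps26 (690 FPKM), Rps15 (686 FPKM) and Rps2 (648 FPKM).

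The lowest tested names were mostly paralogs and retrocopies. Rpl22l1, a paralog of Rpl22, stood at a mean of 40.4 FPKM, Rpl7l1, a paralog of Rpl7, at 28.3 FPKM and Rps4l at 17.4 FPKM, while Rpl6l and Rps3a3 stood at 0.581 and 0.614 FPKM. Rps20 was low among the standard genes by FPKM, at 71.4, but its listed transcript was 3706 bases long, against a median of 834 over the 80 members with at least 1000 reads. In CPM, which is not scaled by length, Rps20 stood at a mean of 113 in the controls. Rps27, at 577 FPKM, stood at 73.1 CPM there. Rpl10l, Rpl39l and Rps12l1 had 0 reads in every library, which allows up to 0.079 to 0.094 CPM by library (a floor of 3 reads, which covers counting error only). Rpl3l, the striated muscle form of Rpl3, had 7 reads in all, and its standard counterpart Rpl3 stood at 317 FPKM.

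Rpl24, a large subunit protein of the bridge to the small subunit, could not be tested on counts. Controls 1 to 3 had 6, 7 and 8 reads and knockdown samples 1 to 3 had 7, 2 and 13. Its FPKM in the same order was 511, 306 and 284, then 289, 343 and 311. The counts and the FPKM values therefore disagree on how much Rpl24 RNA was sequenced. In GENCODE M21, 484 bases of its exons overlap Gm28037, a processed transcript on the same strand, and the part of this overlap in its low count was not tested. By FPKM the knockdown differed from controls 2 and 3 by 0.09 on the log2(FPKM + 1) scale (SE 0.13, limma adjusted p = 0.619).

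**Figure D1:**
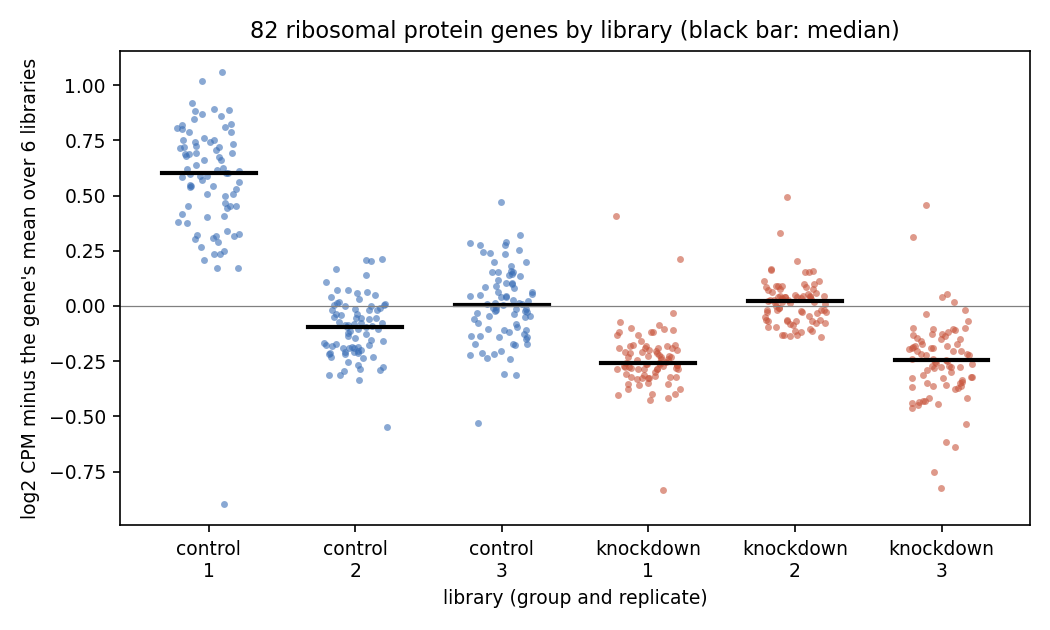
Level of each tested ribosomal protein gene in each library, as log2 CPM minus that gene's mean over the 6 libraries (y axis), by library (x axis), with 1 point for each of the 82 genes and a bar at the median. Control 1 has a median of 0.60, above the medians of the other 5 libraries, which run from -0.26 to 0.02.

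The control library that stood apart also held the most ribosomal protein mRNA. These genes took 1.98%, 1.35% and 1.43% of gene reads in controls 1 to 3 and 1.39%, 1.57% and 1.39% in knockdown samples 1 to 3. Control 1 was the highest library, control 2 the lowest, and the groups overlapped. The mean was 1.59% ± 0.341 (SD, n = 3) in the controls and 1.45% ± 0.100 (SD, n = 3) in the knockdown samples, a difference of -0.134 percentage points (exact two-sided permutation test, p = 0.8, where 0.1 is the smallest p that 3 against 3 allows). Without control 1 the difference turned to 0.0613 percentage points (exact permutation p = 0.6). As a share of summed FPKM the controls stood at 5.18%, 3.89% and 3.85% (mean 4.31%) and the knockdown samples at 4.07%, 4.53% and 4.25% (mean 4.28%, exact permutation p = 1.0). Without control 1 every knockdown sample was above both controls on that measure, by 0.414 percentage points in the mean (exact permutation p = 0.2, the smallest p possible). The 2 measures of the share therefore differ in whether the groups overlap without control 1.

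The balance between the 2 subunits was read from their reads. Small subunit genes gave 40.4%, 39.3% and 39.1% of the ribosomal protein reads in controls 1 to 3. Knockdown samples 1 to 3 stood at 40.0%, 40.4% and 40.3%. With all 6 libraries the ranges overlapped through control 1 (exact permutation p = 0.4). Without control 1 all knockdown samples lay above both controls, by a difference in means of 1.05 percentage points (exact permutation p = 0.2, the smallest p that 2 against 3 allows). Of the 82 genes tested, 77 were highest in control 1, while 38 were lowest in knockdown 1 and 34 in knockdown 3.

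Control 1 was compared gene by gene with the mean of controls 2 and 3, as a description of 1 library and with no test. The median difference over the 82 genes was 0.67 on the log2 CPM scale, 79 of 82 lay above 0 and 55 above 0.5. Over all 13767 genes the median was 0.097, with 53.5% above 0 and 31.4% above 0.5. Rps4l (1.25), Rps18 (1.12), Rps16 (1.11) and Rplp0 (1.07) were at the high end.

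A few members were not high in control 1. Rpl22l1 was lower in control 1 than in controls 2 and 3, by -1.14 on the log2 scale. Rpl23 (-0.07), Rpl4 (-0.00), Rpl21 (0.01), Rpl5 (0.13) and Rpl36a (0.13) were at about the level of controls 2 and 3. The last 5 are large subunit genes, and Rpl5 is a partner of Rpl11 in the 5S RNA particle that binds Mdm2.

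The difference of control 1 moved with the base composition of the transcripts. Across 80 members it correlated with transcript GC content at Spearman's rho of 0.531 and Pearson's r of 0.562, and across 13729 genes of all kinds at Spearman's rho of 0.656. The points share the same 3 libraries, and their GC content ran from 40.6% to 60.8% in the members. Rpl22l1, with the lowest difference, had the lowest GC content, 40.6%. The next by GC content were mixed: Rps20 (41.3%) differed by 0.64, Rpl5 (42.7%) by 0.13 and Rpl15 (43.2%) by 0.79. With transcript length the members' difference had a Spearman's rho of -0.05. The difference of the knockdown mean from controls 2 and 3 also moved with GC content over all genes, but little in the members. Its Spearman's rho was 0.357 across the 13729 genes and 0.0929 across the 80 members. The part of GC content in the height of control 1, or in the comparison without it, was not tested.

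**Figure D2:**
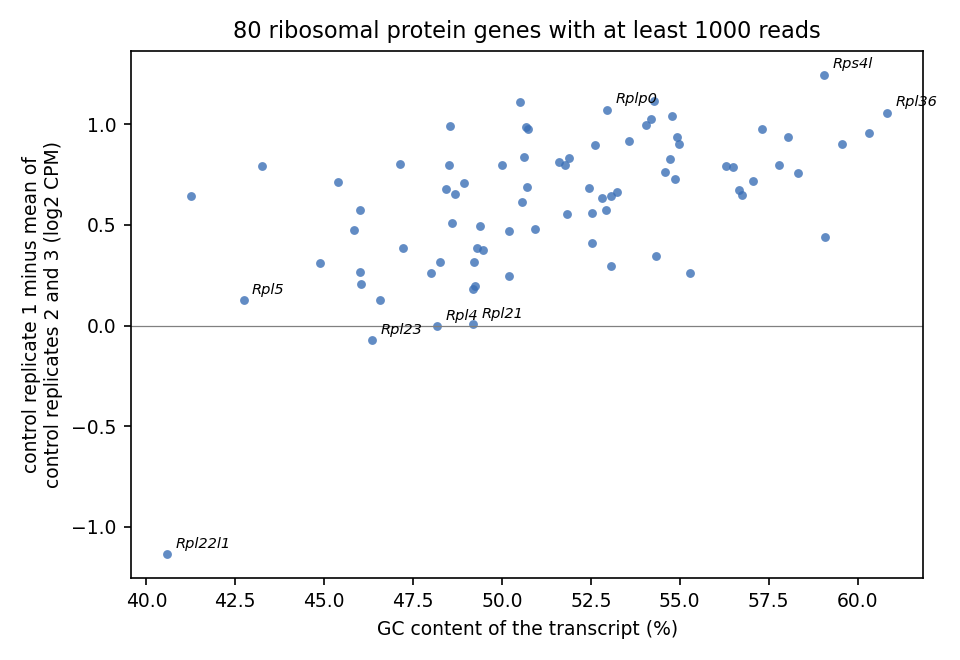
Difference of control 1 from the mean of controls 2 and 3 on the log2 CPM scale (y axis) against transcript GC content in percent (x axis), with 1 point for each of 80 ribosomal protein genes. Genes of higher GC content tend to lie higher (Spearman's rho 0.531), and Rpl22l1 lies alone at the lower left.

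Members with and without a pyrimidine tract had close medians in control 1. The median difference was 0.664 for the 30 with a tract within 20 bases of the start, among them Rps18 and Rpl15 shown above, 0.686 for the 29 tested members with an entry but no such tract, and 0.648 for the 23 without an entry. In the knockdown against controls 2 and 3 the same groups had median log2 fold changes of -0.118, -0.126 and -0.091. These are descriptions with no test.

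With all 6 libraries, none of the ribosomal protein genes passed the test between knockdown and control. The filter on low counts left 82 of the 88 (34 small subunit, 48 large subunit), and edgeR called 0 higher and 0 lower at an adjusted p under 0.05, against 0.741% of 13767 genes called higher and 0.123% called lower. The smallest adjusted p was 0.273 (edgeR), and 3 of the 82 genes had an unadjusted p under 0.05, all lower in the knockdown (Rpl7a, Rpl23 and Rpl21). DESeq2 also called 0, whereas limma-voom with sample quality weights called 5 lower (Rpl4, Rpl5, Rpl7a, Rpl21 and Rpl23). The share of all genes at that unadjusted p, or called by limma-voom, was not counted, so neither count can be set against it. Of the 82 log2 fold changes 79 were negative, with a median of -0.36 and a range from -0.75 (Rpl36) to 0.18 (Rps4l), beside a median of -0.05 and 54.7% negative over all genes. The positive ones were Rps4l, Rpl22l1 and Rps3a3.

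Groups that do not overlap were counted next. For 19 members (23.2%) every knockdown value lay below every control value, against 10% of all genes tested, and for 0 every knockdown value lay above, against 13.0%. Among the 19 were Rps3a1, Rps7, Rps24 and Rps25 of the small subunit and Rpl4, Rpl5, Rpl7a, Rpl7l1, Rpl10, Rpl13, Rpl14, Rpl21, Rpl23, Rpl30, Rpl31, Rpl34, Rpl35a and Rpl36a of the large subunit.

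Without control 1 the fold changes drew close to 0. The median log2 fold change was -0.12 (quartiles -0.20 and -0.01), with 61 negative and 21 positive, beside a median of 0.01 and quartiles of -0.39 and 0.47 over 14222 genes. The median was -0.04 for the small subunit and -0.13 for the large subunit. These fold changes rest on TMM scaling, with factors of 0.9196 and 0.9407 in controls 2 and 3 and 1.065, 1.009 and 1.075 in knockdown samples 1 to 3. The members' share of gene reads, which is not TMM-scaled, went the other way, with a mean of 1.389% in controls 2 and 3 and 1.45% in the knockdown samples. The direction of the small difference thus depends on the scaling. The same 82 genes were tested; edgeR called 2 lower (2.44%) and 0 higher, while 16.1% of all genes were called lower and 16.5% higher. The groups did not overlap for 19 members lower in the knockdown (23.2%, against 29.9% of all genes) and for 2 higher, Rpl3 and Rps15a (2.44%, against 28.7%). The 19 were the same genes as with all 6 libraries. The share of members called was thus below that of all genes in both directions, and 81 of the 82 log2 fold changes were smaller than 0.5 in size.

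**Figure D3:**
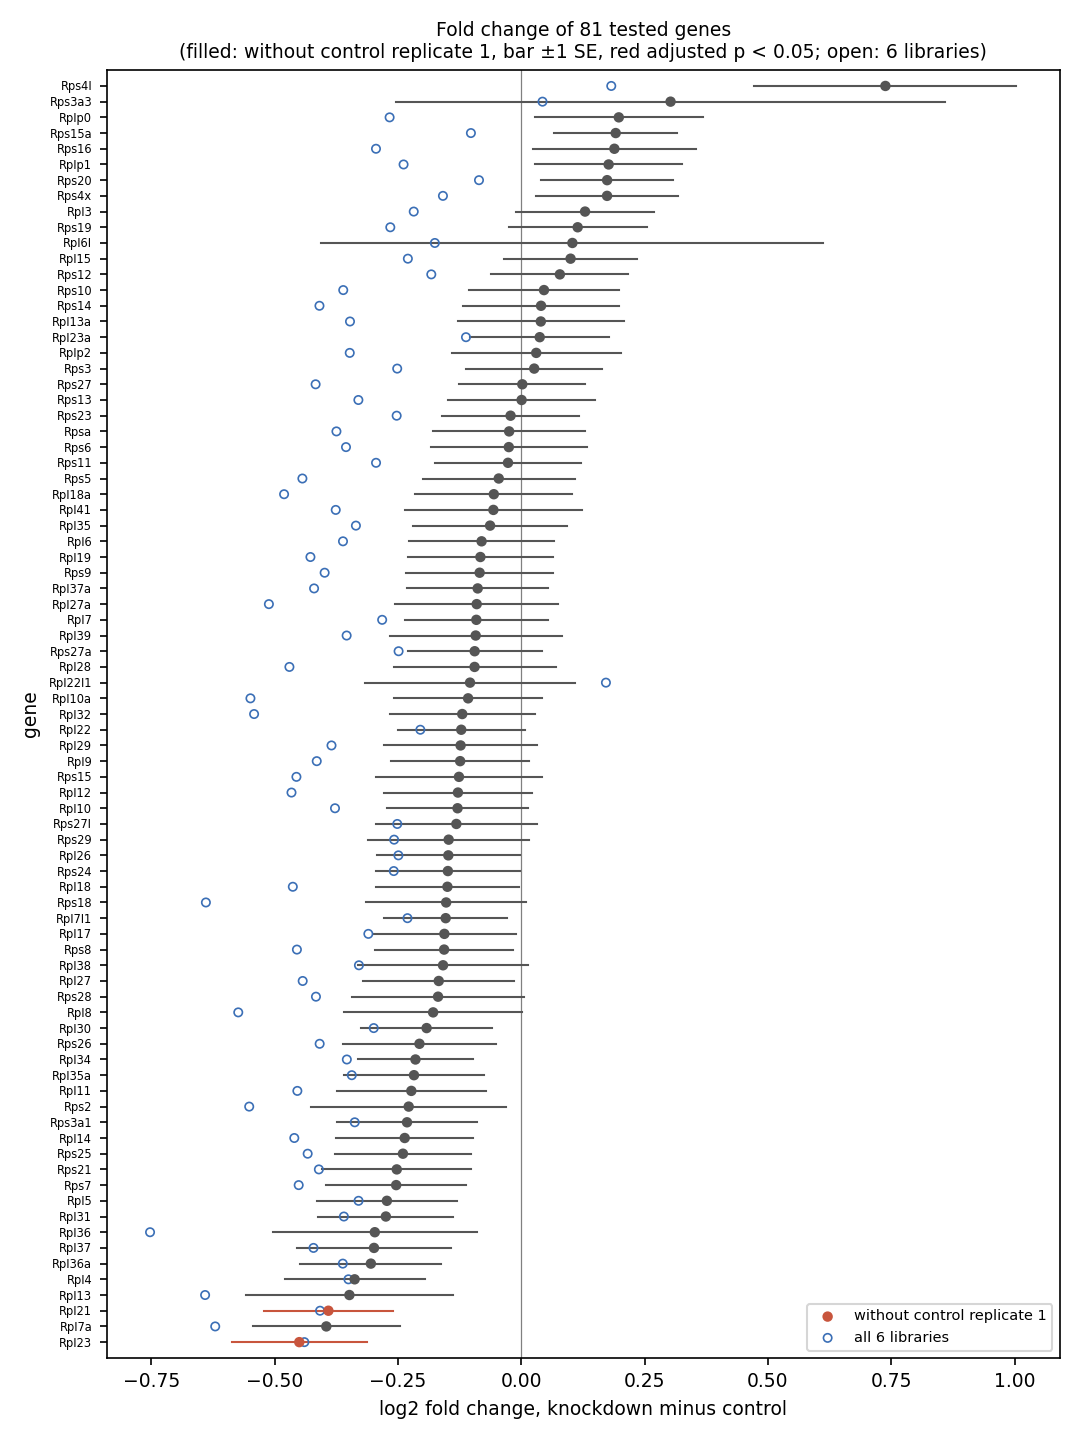
Log2 fold change, knockdown minus control (x axis), of 81 of the 82 tested ribosomal protein genes (y axis), with filled points and bars of 1 SE for the fit without control 1 (red where the edgeR adjusted p is under 0.05) and open points for all 6 libraries. The open points lie mostly below 0 (over all 82 genes 79 are negative, median -0.36) and the filled ones closer to 0 (median -0.12), while for Rpl23, Rpl21 and Rpl4 both points nearly coincide.

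Rpl23 and Rpl21 were the 2 genes that fell in the edgeR test, which called them when control 1 was left out and not with all 6 libraries. Rpl23 (GRCm38 chr11:97777527-97782437, minus strand, protein coding) encodes a large subunit protein that, like Rpl5 and Rpl11, can bind Mdm2. It stood at 220.0, 219.8 and 244.1 CPM in the controls and 156.3, 178.3 and 169.6 CPM in the knockdown samples. All 3 controls, control 1 included, were above all 3 knockdown samples. The log2 fold change was -0.44 (SE 0.17, edgeR adjusted p = 0.288) with all libraries and -0.45 (SE 0.14, edgeR adjusted p = 0.0303) without control 1. Its size was thus the same with and without control 1, while the adjusted p fell below the threshold without it. The adjusted p also depended on which other library was in the fit: with control 1 left out, it was 0.0786 without control 2 as well, 0.21 without control 3 and 0.124 without knockdown 1 (edgeR), and the log2 fold change was -0.52, -0.38 and -0.39.

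Rpl21 (GRCm38 chr5:146832890-146837032, plus strand, protein coding), a large subunit protein, showed the same arrangement. It stood at 208.1, 207.9 and 206.4 CPM in the controls and 147.5, 163.4 and 158.2 CPM in the knockdown samples, with no overlap between groups. The 3 controls were within 2 CPM of each other, although control 1 was high for most other members. This closeness and the lack of overlap hold for TMM-scaled CPM, with factors of 0.852, 0.944 and 0.965 in controls 1 to 3. As an unscaled share of gene reads, control 1 (6283 of 35438096) lay below the other controls and below knockdown 3 (6786 of 37969644). For Rpl23 and Rpl4 the unscaled share in control 1 also lay below the other controls and knockdown 3. The log2 fold change of Rpl21 was -0.41 (SE 0.16, edgeR adjusted p = 0.302) with all libraries and -0.39 (SE 0.13, edgeR adjusted p = 0.0433) without control 1. With control 1 left out, the adjusted p rose to 0.17 without control 2 as well, 0.176 without control 3, 0.157 without knockdown 1 and 0.0535 without knockdown 3 (edgeR), and the log2 fold change stayed between -0.41 and -0.34. A snoRNA gene, Gm25091, overlaps 71 bases of its exons.

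Rpl7a and Rpl4, both large subunit proteins, had the next smallest p among the lower ones and did not pass. Rpl7a stood at 545.4, 353.5 and 387.0 CPM in the controls and 254.8, 315.8 and 265.8 CPM in the knockdown samples. The groups did not overlap, and control 1 was well above the other controls. Its log2 fold change was -0.62 (SE 0.23, edgeR adjusted p = 0.273) with all libraries and -0.40 (SE 0.15, edgeR adjusted p = 0.0676) without control 1. Rpl4 stood at 617.2, 635.3 and 603.4 CPM in the controls and 469.3, 516.2 and 470.3 CPM in the knockdown samples, with no overlap and with control 1 between the other controls. Its log2 fold change was -0.35 (SE 0.17, edgeR adjusted p = 0.403) with all libraries and -0.34 (SE 0.14, edgeR adjusted p = 0.0943) without control 1. Rpl36a, at 87.6, 72.7 and 88.2 CPM in the controls and 57.1, 69.6 and 66.8 CPM in the knockdown samples, was the fifth by p among the lower ones without control 1 (log2 fold change -0.30, SE 0.14, edgeR adjusted p = 0.13).

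Rps4l, a retrocopy of Rps4x on chromosome 6 (GRCm38 chr6:148354656-148355598, plus strand), had the highest fold change of the set without control 1. It stood at 23.2, 9.69 and 9.81 CPM in the controls and 18.8, 19.9 and 9.79 CPM in the knockdown samples. Control 1 and knockdown 1 and 2 were high, while knockdown 3 was at the level of controls 2 and 3, so the groups overlapped. The log2 fold change was 0.18 (SE 0.43, edgeR adjusted p = 0.882) with all libraries and 0.74 (SE 0.27, edgeR adjusted p = 0.0568) without control 1. On the log2(FPKM + 1) scale the second comparison gave 0.73 (SE 0.23, limma adjusted p = 0.0486). Rps4x, the gene on the X chromosome that encodes the standard protein, stood at 451.5, 264.9 and 254.0 CPM in the controls and 263.2, 310.0 and 296.1 CPM in the knockdown samples (log2 fold change 0.17 without control 1, SE 0.14, edgeR adjusted p = 0.386). The sources used here do not say how reads that match both copies were placed, which makes the counts of Rps4l uncertain.

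**Figure D4:**
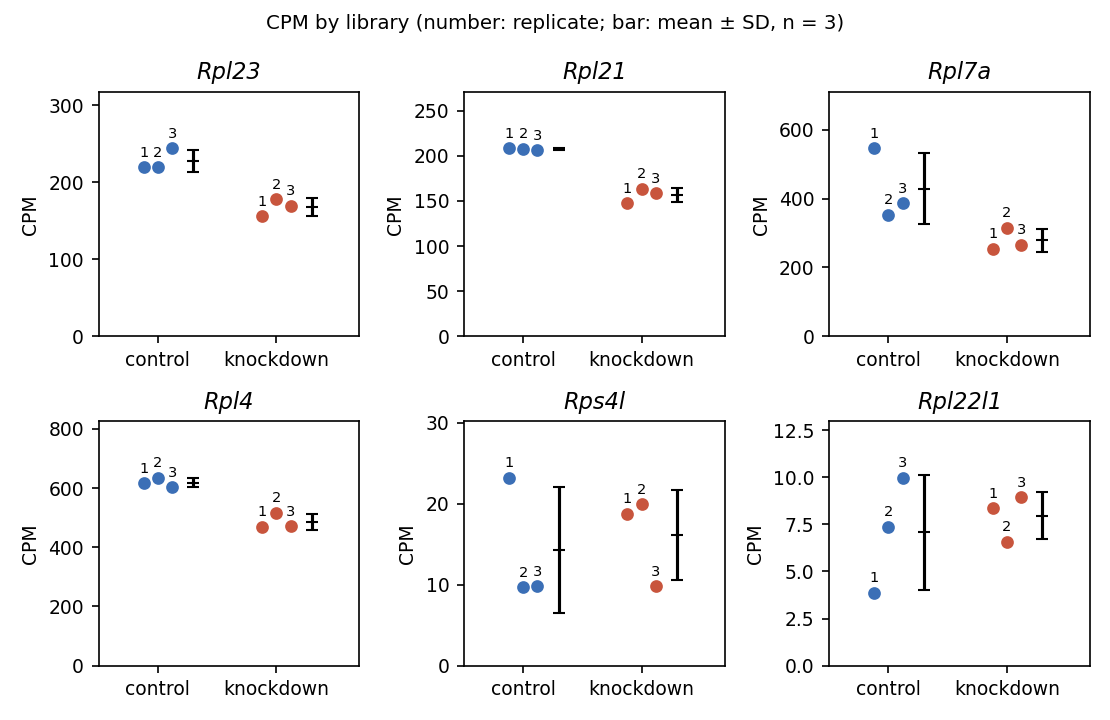
CPM (y axes, starting at 0) of 6 ribosomal protein genes in each control and knockdown library, with points numbered by replicate and a bar at the mean ± SD of each group (n = 3). For Rpl23, Rpl21 and Rpl4 control 1 lies with the other controls, above all knockdown samples, for Rpl7a and Rps4l it lies above the other controls, and for Rpl22l1 it is the lowest library.

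The other paralog pairs showed no called difference. Rpl22l1 stood at 3.88, 7.37 and 9.97 CPM in the controls and 8.36, 6.58 and 8.95 CPM in the knockdown samples, with control 1 the lowest and the groups overlapping (log2 fold change 0.17 with all libraries, -0.10 without control 1). Rpl22, its widely expressed counterpart, stood at 74.1, 65.7 and 63.6 CPM and at 53.6, 65.4 and 57.6 CPM (log2 fold change -0.12 without control 1, SE 0.13, edgeR adjusted p = 0.505). Rps27l, a p53 target gene, stood at 112.6, 77.5 and 106.4 CPM in the controls and 74.4, 83.7 and 91.0 CPM in the knockdown samples. Its counterpart Rps27 stood at 108.9, 53.3 and 57.3 CPM and at 49.6, 58.7 and 56.1 CPM. Control 1 was far above the other controls for Rps27 and close to control 3 for Rps27l, a difference between the 2 genes that was not tested. Rpl7l1, at 80.0, 65.4 and 75.9 CPM in the controls and 60.9, 64.5 and 63.2 CPM in the knockdown samples, was lower in every knockdown sample than in every control (log2 fold change -0.23 with all libraries, SE 0.17, edgeR adjusted p = 0.599). Rpl7 stood at 432.4, 316.6 and 305.6 CPM and at 259.9, 312.8 and 294.6 CPM, with overlap.

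The stalk genes, whose proteins recruit elongation factors to the ribosome, were high in control 1. Rplp0, the base of the stalk, stood at 965.2, 474.5 and 443.4 CPM in the controls and 512.4, 616.1 and 436.5 CPM in the knockdown samples. Rplp1 stood at 364.2, 176.3 and 194.3 CPM and at 208.3, 232.9 and 181.5 CPM, and Rplp2 at 162.0, 79.0 and 94.8 CPM and at 84.9, 107.0 and 72.0 CPM. In each of the 3 genes control 1 was the highest library by far and the remaining libraries of both groups overlapped. Their log2 fold changes were -0.27, -0.24 and -0.35 with all libraries and 0.20, 0.18 and 0.03 without control 1, so the sign turned when that library was left out. None passed edgeR in either fit (adjusted p from 0.395 to 0.912).

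Members with roles in signalling and surveillance were also without a call. Rps6, the substrate of S6 kinase, stood at 572.1, 352.8 and 306.5 CPM in the controls and 291.3, 370.6 and 300.7 CPM in the knockdown samples (log2 fold change -0.03 without control 1, SE 0.16, edgeR adjusted p = 0.92). Rpl5 stood at 311.0, 301.5 and 269.3 CPM in the controls and 215.9, 241.2 and 244.3 CPM in the knockdown samples, with no overlap. Rpl11 stood at 326.1, 216.4 and 222.0 CPM and at 167.6, 217.2 and 173.2 CPM, with knockdown 2 just above control 2. The log2 fold changes without control 1 were -0.27 (SE 0.14, edgeR adjusted p = 0.168) for Rpl5 and -0.22 (SE 0.15, edgeR adjusted p = 0.29) for Rpl11.

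Rpsa, also known as a laminin receptor, stood at 823.3, 468.4 and 452.1 CPM in the controls and 433.3, 513.0 and 398.7 CPM in the knockdown samples. Rps19 and Rps14, both linked to anaemias of failing ribosome assembly, had log2 fold changes without control 1 of 0.11 (SE 0.14) and 0.04 (SE 0.16). Values for Rpl13a, also a subunit of an interferon-response complex, were 0.04 (SE 0.17), and for Rps3, which also takes part in DNA repair, 0.03 (SE 0.14). Rpl38, linked to selective translation in the embryo, and Rps27a, made as a fusion with ubiquitin, had -0.16 (SE 0.17) and -0.09 (SE 0.14). For these members control 1 was the highest of the 6 libraries, and knockdown samples overlapped with controls 2 and 3.

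The remaining genes picked by their p without control 1 were higher in the knockdown and not called. Rps15a stood at 123.9, 77.0 and 74.1 CPM in the controls and 80.4, 86.2 and 89.6 CPM in the knockdown samples. Rps20 stood at 148.2, 88.3 and 102.1 CPM and at 105.6, 114.6 and 98.9 CPM. Controls 2 and 3 were below all knockdown samples for Rps15a and overlapped with them for Rps20. The log2 fold changes without control 1 were 0.19 (SE 0.12, edgeR adjusted p = 0.272) and 0.17 (SE 0.13, edgeR adjusted p = 0.353).

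Other genes of ribosome production were read from lists chosen with earlier results of these data known. The biogenesis list, whose genes make, modify and assemble ribosomal RNA, had 68 members tested. With all 6 libraries 0 of the 68 were called by edgeR in either direction (11 at an unadjusted p under 0.05), with 60 negative and a median log2 fold change of -0.34. In that fit 0.123% of all genes were called lower and 0.741% higher. The share of all genes at an unadjusted p under 0.05 was not counted, for this list or those below. Without control 1, 23 of the 68 fell (33.8%, against 16.1% of all genes) and 2 rose, Eif6 and Ubtf (2.94%, against 16.5%), with a median of -0.27. Among those that fell were Nop10 of the pseudouridylation complex (38.2, 32.5 and 43.7 CPM in the controls, 17.9, 17.4 and 21.8 CPM in the knockdown samples) and Nolc1, a nucleolar chaperone (60.6, 65.9 and 68.4 CPM, then 33.3, 39.5 and 36.2 CPM). In both, all controls, control 1 included, were above all knockdown samples, and the log2 fold changes were -0.98 (SE 0.17, edgeR adjusted p = 0.00210) and -0.87 (SE 0.12, edgeR adjusted p = 0.000883). Rrp12, needed for export of the subunits, had -0.66 (SE 0.14, edgeR adjusted p = 0.00656). Control 1 did not side with the other controls for most of the 23: it lay above all knockdown samples for 7, among them Nop10 and Nolc1, within their range for 2 and below all of them for 14. Among the 14 was Ncl, which encodes nucleolin, at 53.7, 272.2 and 241.7 CPM in the controls and 108.2, 127.9 and 136.7 CPM in the knockdown samples. Npm1, which encodes nucleophosmin, stood at 37.7, 124.2 and 107.2 CPM and at 67.3, 77.1 and 81.4 CPM. The cytosolic ribosomal protein genes, with 2 of 82 called, and the biogenesis genes were not tested against each other.

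Mitochondrial ribosomal proteins, which form the separate ribosome of that organelle, were tested for 76 of 77 genes. With all libraries 0 were called by edgeR (10 at an unadjusted p under 0.05), 74 of 76 were negative and the median log2 fold change was -0.26. Without control 1, 14 fell (18.4%, against 16.1% of all genes) and 0 rose, with a median of -0.17. Control 1 was above all knockdown samples for 8 of the 14 and below all of them for 3. Mrpl34 stood at 31.1, 24.6 and 28.8 CPM in the controls and 14.7, 13.1 and 10.9 CPM in the knockdown samples, with no overlap (log2 fold change without control 1 -1.03, SE 0.16, edgeR adjusted p = 0.00129). Mrpl36 and Mrps5 had log2 fold changes of -0.66 and -0.54 in that comparison (edgeR adjusted p = 0.00521 and 0.0108).

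The translation factors and other TOP mRNAs were tested for 21 genes. Of these, 0 were called with all libraries (edgeR, 1 at an unadjusted p under 0.05, median log2 fold change -0.25). Without control 1, 3 fell (Eif3e, Eif4a2 and Npm1, 14.3%, against 16.1% of all genes) and 1 rose (Hnrnpa1, 4.76%, against 16.5%), with a median of -0.04. In all 3 that fell, control 1 was below every knockdown sample. Hnrnpa1, an RNA-binding protein, stood at 55.4, 65.7 and 62.1 CPM in the controls and 100.5, 71.0 and 94.5 CPM in the knockdown samples (log2 fold change 0.49, SE 0.16, edgeR adjusted p = 0.0454). Fau, which encodes a small subunit protein as a fusion, stood at 273.1, 131.8 and 135.6 CPM and at 100.9, 132.6 and 78.9 CPM. It overlapped between groups only through knockdown 2 and control 2, and its log2 fold change without control 1 was -0.35 (SE 0.19, edgeR adjusted p = 0.186). Naca, which shields nascent chains at the ribosome, had -0.22 (SE 0.13, edgeR adjusted p = 0.212).

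Among regulators of ribosomal protein synthesis the calls without control 1 were near the share over all genes. Ddit4, an inhibitor of mTORC1, was the 1 gene of 25 tested that fell with all libraries, from 24.1, 27.1 and 23.4 CPM in the controls to 8.75, 10.7 and 7.23 CPM in the knockdown samples (log2 fold change -1.48, SE 0.22, edgeR adjusted p = 0.0384). No library departed from its group, yet the adjusted p was 0.0996 to 0.256 when any 1 of controls 2 and 3 or the knockdown samples was left out (edgeR). With all libraries 0 regulators rose, and over all genes 0.123% were called lower and 0.741% higher in that fit. Without control 1, 5 of 25 fell and 4 rose, where 16.1% and 16.5% of all genes did. Those that fell were Larp4, Rps6kb1, Ddit4, Deptor and Rheb, and those that rose were Sesn2, Eef2k, Maf1 and Eif4ebp2, among which Sesn2 and Maf1 restrain mTORC1 and RNA polymerase III. Rps6kb1, an S6 kinase, was also low in control 1, at 8.15 CPM against 53.8 and 58.6 CPM in controls 2 and 3 and 17.1, 21.7 and 19.7 CPM in the knockdown samples. Larp1, which binds the TOP tract, and Mtor had log2 fold changes without control 1 of -0.17 (SE 0.13) and 0.18 (SE 0.12), and Myc -0.37 (SE 0.16, edgeR adjusted p = 0.0935).

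Of 20 genes for chaperones, importins, ribosome rescue and the p53 link, 0 were called by edgeR with all libraries and 0 had an unadjusted p under 0.05. Without control 1, 5 of 20 fell (Nemf, Ipo7, Ltn1, Tnpo1 and Nap1l1) and 0 rose, where 16.1% and 16.5% of all genes did. In all 5, control 1 was below every knockdown sample. Nemf and Ltn1 act on stalled large subunits, and Ipo7 and Tnpo1 carry ribosomal proteins into the nucleus. Grwd1, a chaperone of Rpl3, followed control 1 as the stalk genes did, at 31.8 CPM against 11.1 to 15.5 CPM in the other libraries. Mdm2, the ligase that free Rpl5, Rpl11 and Rpl23 bind, stood at 25.2, 54.6 and 51.8 CPM in the controls and 64.1, 59.3 and 58.0 CPM in the knockdown samples, with no overlap (log2 fold change 0.20 without control 1, SE 0.12, edgeR adjusted p = 0.235). Trp53 and Cdkn1a, which encode p53 and its target p21, had log2 fold changes without control 1 of 0.43 (SE 0.17, edgeR adjusted p = 0.0816) and -0.46 (SE 0.22, edgeR adjusted p = 0.132).

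**Figure D5:**
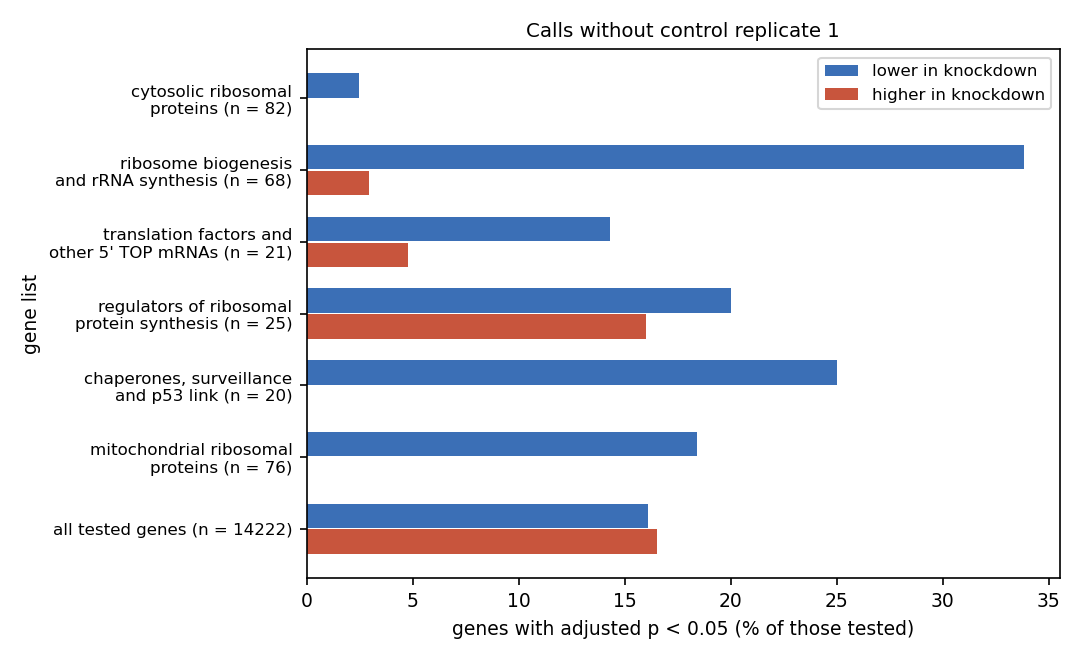
Share of tested genes called by edgeR without control 1 (x axis, in percent, adjusted p under 0.05), lower or higher in the knockdown, for the cytosolic ribosomal protein genes, the 5 lists of related genes and all 14222 tested genes (y axis). The cytosolic ribosomal protein genes have 2.44% called lower and 0 higher, and the biogenesis list has 33.8% called lower, beside 16.1% lower and 16.5% higher over all genes.

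Summed markers of other liver cells differed in how the groups lay. The summed CPM over 7 stellate cell and fibroblast genes was 188 to 211 in the controls and 300 to 415 in the knockdown samples, and over 9 macrophage genes 298 to 517 in the controls and 480 to 589 in the knockdown samples, where control 1 was at 517 and the groups overlapped. Over 6 endothelial genes it was 131 to 155 in the controls and 122 to 171 in the knockdown samples, also with overlap. No stellate, macrophage or endothelial gene was called by edgeR with all libraries (0 in each list), a fit that called 0.741% of all genes higher and 0.123% lower. Lists this short can therefore hold no call even where their sums differ. Calls of these genes without control 1 were not counted. The sum over 7 bile duct genes, of which Spp1 is one that other cells also express, was 39.5 to 51.7 CPM in the controls and 332 to 554 CPM in the knockdown samples, with 1 of its 3 tested genes called higher. Krt19 (0 to 0.166 CPM by library) and Epcam (0.292 to 1.35 CPM) gave almost none of this sum. Epcam, at 9 to 58 reads by library, had a log2 fold change of 1.00 (SE 0.55, edgeR adjusted p = 0.465) with all libraries. Without control 1 it was 1.495 (SE 0.57, edgeR adjusted p = 0.0692). The sum therefore does not show whether bile duct markers rose in general. Of the lymphocyte, neutrophil and erythroid lists 1 gene each could be tested. Their part in the levels of the ribosomal protein genes was not tested.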

How the data were processed

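The authors deposited raw read counts per gene for each of the 6 samples and a table of FPKM values. Per the submitters' processing notes, which assign no roles, the tools were HISAT2 (given as 2.10), HTSeq, Cufflinks (2.2.1), Trim Galore and FastQC, on build GRCm38 (mm10). Strand use was not given in those sources. Summary lines at the end of the deposited count files put 2.48% to 5.66% of reads outside genes and 4.69% to 6.87% as ambiguous, with 0 multiply aligned. These lines were left out. Reads shared between a ribosomal protein gene and its copies are therefore missing or placed without a mark. Of 269 pseudogenes named after a member 151 had a read, together 0.236% to 0.304% of the members' reads.

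The edgeR 4.0.16 quasi-likelihood test (R 4.3.3) was fitted to the counts of all genes that passed filterByExpr, with TMM scaling and group as the only term. Benjamini-Hochberg adjustment ran over all tested genes, with 0.05 as threshold. CPM use the TMM-scaled sizes of the fit with 6 libraries, log2 CPM a prior count of 2, and FPKM tests limma 3.58.1 on log2(FPKM + 1) for genes of at least 0.5 FPKM in 3 libraries. GC content and length come from 1 transcript per gene in GENCODE M21. Alternatives were median ratio size factors, DESeq2 1.42.0, limma-voom with quality weights, FPKM with pseudocounts of 1 and 0.1, no filter, the replicate number as a block, a loess offset (span 0.3) for GC content and length, the summed member reads as library size, pseudogene reads added, leaving each library out, and removing mitochondrially encoded genes and the 20 of highest abundance. On simulated data with known changes the edgeR script was tested first.

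Members, lists and the naming rule were chosen with earlier results of these data known. Named are paralogs and their counterparts, the 5 members with the smallest p per direction in each fit, the 3 highest and 3 lowest members per subunit by FPKM, members with textbook roles, and the 3 list genes with the smallest p with all libraries. Genes named outside it were chosen after their values were seen: the further list genes that passed or have a textbook role, the members that stand out in control 1, and those whose groups do not overlap. For 1 member that meets the rule no values are reported here.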

Additional observations from a re-analysis of the deposited data

How the results depend on the processing

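The 6-library result of 0 called members held under median ratio size factors, DESeq2, the offset for GC content and length, no filter, FPKM, added pseudogene reads and removal of abundant genes; it was 5 under limma-voom with quality weights (Rpl4, Rpl5, Rpl7a, Rpl21 and Rpl23, all lower), and 0 to 2 with each library left out, 2 being without control 1. The median log2 fold change was -0.37 to -0.15 under these alternatives, -0.50 to -0.12 with each library left out, and 0.01 when the summed member reads were the library size, a scaling that sets the members' total equal by construction. Without control 1, the 2 called members became 5 with DESeq2 (Rpl4, Rpl7a, Rpl21 and Rpl23 lower, Rps4l higher), 5 with the offset for GC content and length (Rpl7a, Rpl21 and Rpl23 lower, Rps4l and Rps20 higher), 1 with the summed member reads as library size (Rps4l higher, 0.84, SE 0.25, edgeR adjusted p = 0.02), and 0 to 4 with a further library left out: 0 without control 2, control 3 or knockdown 1, and 4 without knockdown 2 (Rpl7a, Rpl21, Rpl23 and Rpl36). Rps20, whose listed transcript of 3706 bases enters the offset for GC content and length, was 0.53 (SE 0.15, edgeR adjusted p = 0.0286) with that offset. Without the offset it was 0.17 (SE 0.13, edgeR adjusted p = 0.353). An alternative chosen after seeing the data, limma on log2(FPKM + 1) without control 1, called 2, Rpl23 lower and Rps4l higher. Apart from leaving out control 1, the share of all genes called under the alternatives was not counted. The share of gene reads differed by -0.252 to 0.0613 percentage points with each library left out.

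The replicate numbers are shared by the groups only as numbers: same-numbered samples' deviations correlated at 0.25, -0.08 and 0.29. With the number as a replicate block, 0 members were called with all libraries (median -0.33) and 0 without control 1.

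Log2 fold changes of single named genes whose sign turned were as follows, with all 6 libraries. With the summed member reads as library size they were Rpl10 0.00, Rpl13a 0.05, Rpl22 0.13, Rpl3 0.19, Rpl38 0.03, Rpl39 0.04, Rpl41 0.02, Rpl5 0.00, Rpl6l 0.20, Rpl7 0.08, Rpl7l1 0.11, Rplp0 0.15, Rplp1 0.18, Rplp2 0.05, Rps14 0.01, Rps15a 0.30, Rps19 0.14, Rps20 0.30, Rps27 0.01, Rps27a 0.11, Rps27l 0.11, Rps3 0.14, Rps4x 0.24, Rps6 0.04, Rpsa 0.02, Hbs1l 0.06, Naca 0.04. Under limma-voom with quality weights they were Rpl22l1 -0.01, Rpl3 0.08, Rplp0 0.14, Rplp1 0.16, Rplp2 0.01, Rps15a 0.13, Rps19 0.06, Rps20 0.17, Rps3a3 -0.04, Rps4x 0.09. Rps20 was 0.11 on both FPKM scales, and Rps3a3 -0.08 on log2(FPKM + 1), with or without the filter, -0.30 on log2(FPKM + 0.1) and -0.00 in the replicate block. Across the fits that leave out 1 library the ranges were Rpl13a -0.52 to 0.04, Rpl22l1 -0.10 to 0.50, Rpl3 -0.37 to 0.13, Rpl6l -0.35 to 0.10, Rplp0 -0.47 to 0.20, Rplp1 -0.43 to 0.18, Rplp2 -0.55 to 0.03, Rps14 -0.59 to 0.04, Rps15a -0.24 to 0.19, Rps19 -0.43 to 0.11, Rps20 -0.24 to 0.17, Rps27 -0.60 to 0.00, Rps3 -0.37 to 0.03, Rps3a3 -0.14 to 0.41, Rps4l -0.04 to 0.74, Rps4x -0.31 to 0.17. The cause of these turns was not tested. Ddit4 kept its direction (-1.58 to -1.32 with each library left out), but its edgeR adjusted p was 0.0996 to 0.256 without any 1 of controls 2 and 3 or knockdown 1 to 3. Its call was also lost in the replicate block (-1.50, edgeR adjusted p = 0.0734), with the summed member reads as library size (-1.19, edgeR adjusted p = 0.0871) and on unfiltered log2(FPKM + 1) (-1.29, limma adjusted p = 0.0645).

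At 3 against 3 samples the permutation test of a share cannot pass 0.05. Calls on 2 controls rest on 2 libraries. Reads of near-identical copies, the low Rpl24 count and the GC content that moves with control 1 limit what the levels of single members show.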
